A study of Mus musculus with 62 samples.

Results

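The genes described here are 41 genes for matrix proteins other than collagens and for the enzymes that cross-link or cut the matrix. They were chosen by symbol, with earlier results of these data known, from the 55487 genes of a count table of mouse quadriceps muscle. All 41 were found in it. By role they comprise 9 proteoglycans, 8 laminin chains and nidogens, 6 elastic fibre proteins, 11 adhesive or matricellular glycoproteins, and 7 enzymes and enzyme inhibitors. The muscle came from 62 male mice. Access to a wheel for voluntary running was combined in every way with nicotinamide riboside, a form of vitamin B3 and precursor of NAD (NR), and with pterostilbene, a resveratrol-like stilbenoid of plants (PT). Polyadenylated RNA was sequenced, with 1 library per animal.

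The 30 runners (labelled Training) comprised 7 mice without supplement, 7 with NR, 8 with PT and 8 with both. The 32 mice without running (labelled noTraining) comprised 8 in each of the same 4 supplement conditions. NR was given intravenously according to the title of the study. Strain, age, doses and running distance are not stated in the labels used here. Mice were taken on 8 days in 2 cohorts of 31, and on each day the runners were taken at 1 time (morning or noon) and the others at the other time. The running state and the session within a day therefore cannot be told apart for a single day, and the time of day was a term of the fit.

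The extracellular matrix of muscle is built around collagens, and the proteins described here assemble, space, anchor and remodel it. Laminins and nidogens, with type IV collagen and the large proteoglycans perlecan and agrin, form the basement membrane around each fibre and each capillary. Small leucine-rich proteoglycans bind collagen fibrils in the endomysium, perimysium and tendon, fibrillins and fibulins carry elastic fibres, and lysyl oxidases, matrix metalloproteinases and their inhibitors cross-link, cut and protect these structures. Much of this RNA is made by fibroblasts and vascular cells rather than by the muscle fibres.

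Libraries held 5.64 to 30.8 M counts (median 16.1 M, where M stands for 1e6). The RNA integrity number had a median of 9.6 in runners (8.6 to 10) and in non-runners (9.1 to 10). Myofibre genes such as Acta1, skeletal muscle actin, were present in all 62 libraries. Of the cartilage genes, Acan was at 0 in 55 of 62, Matn3 in 43, Hapln1 in 25 and Col2a1 in 8, whereas Col9a1 and Sox9 were present in all 62. Running, NR-only replicate 1 stood apart, with 5.64 M counts, of which 15.2% fell on 8 rRNA-like genes, and it was the highest of the 62 animals for 8 members. Non-running, no-supplement replicate 8 was the lowest animal for 21 members, with a mean deviation of -0.80 over the 41 members on the log2 scale. Calls that were lost without either library are given with and without it.

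All 41 members passed the filter on low counts. Per kilobase of exon the decorin gene Dcn had the highest mean level, at 96.9 CPM (counts per 1e6 counts of a library) per kilobase. Sparc (83.5), Sparcl1 (60.7) and Timp2 (47.0) came next on that scale. The lowest were Timp1 (0.475) and Adamts4 (0.135), whose mean raw counts per library were 7.37 and 10.9, so that their differences were measured with little precision. Neighbours in this order, such as Thbs4 (28.3) and Fmod (27.9), overlapped between animals. The spread between the 62 animals differed widely among members. The coefficient of variation was 86.4% for Postn, 73.7% for Adamts4 and 68.1% for Chad, against 10.7% for Lamb2, 11.02% for Lamc1 and 12.1% for Sparcl1.

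With running, 14 of the 41 members rose and none fell at an adjusted p under 0.05 (edgeR quasi-likelihood test, Benjamini-Hochberg adjustment over 14549 genes). Over all tested genes, 14% were called for running, 8.41% as higher and 5.58% as lower. The members that rose were 6 of 9 proteoglycans, 4 of 8 laminins and nidogens, 1 of 6 elastic fibre proteins, 2 of 11 adhesive or matricellular proteins, and 1 of 7 enzymes and inhibitors. The log2 change was above 0 for 38 of 41 members, against 55.1% of all tested genes. The median change of the members was 0.17 on the log2 scale, and that of all tested genes was 0.01. These are descriptions of a list and not a test of it.

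**Figure D1:**
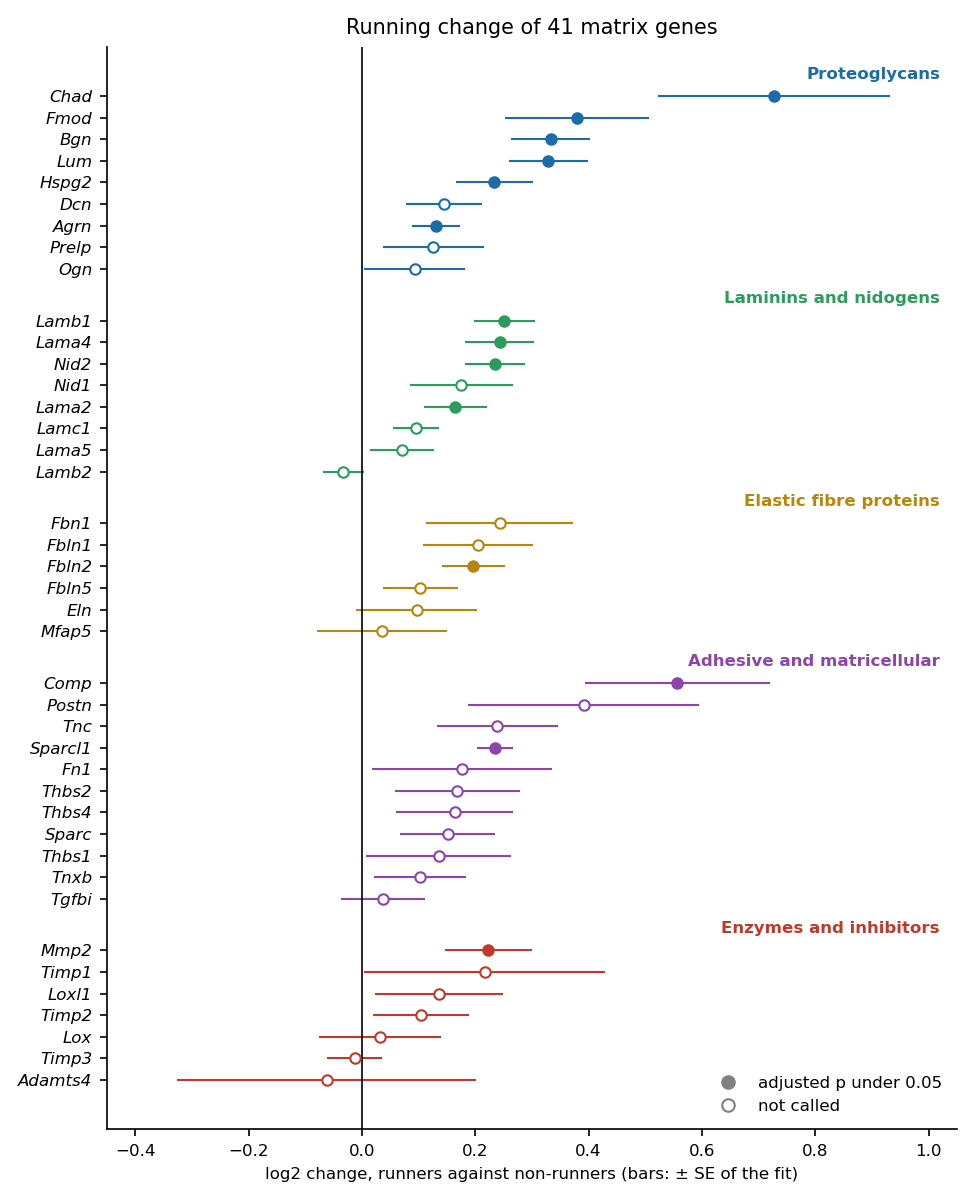
Log2 change between runners and non-runners (x axis) for each of the 41 genes (y axis), grouped by class and ordered by size within it. Points are fitted changes, bars are ± 1 standard error, and filled points mark the 14 genes at an adjusted p under 0.05. All 14 filled points lie to the right of 0, from 0.13 for Agrn to 0.73 for Chad, and the longest bars belong to the low or variable genes Adamts4, Timp1, Postn and Chad.

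Among the proteoglycans, Bgn and Lum had the smallest p-values. Biglycan (Bgn, chrX:73483602-73495929, plus strand, in mm10 as deposited) is a small leucine-rich proteoglycan of the pericellular space that also binds the dystrophin-associated complex. Bgn ranged from 27.0 to 65.9 CPM (median 50.5) in non-runners and from 40.8 to 82.0 CPM (median 61.7) in runners. The ranges overlapped, but 25 of 30 runners lay above the non-runner median and 11 above the highest non-runner. The log2 change of Bgn was 0.33 ± 0.07 (SE, adjusted p 0.000886), and the runner was higher in 24 of 30 pairs of mice of the same day and supplements. Lumican (Lum, chr10:97565128-97572703, plus strand), which spaces collagen fibrils, ranged from 22.2 to 58.0 CPM (median 39.8) in non-runners and from 27.4 to 70.3 CPM (median 49.2) in runners. Its log2 change was 0.33 ± 0.07 (adjusted p 0.0011), with the runner higher in 25 of 30 pairs. The 2 genes thus showed the same size of change with overlapping groups.

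Chad and Fmod showed larger but more scattered changes. Chondroadherin (Chad, chr11:94565047-94569127, plus strand) is a leucine-rich protein of cartilage and tendon that binds collagen and integrin. Chad ranged from 0.705 to 11.1 CPM (median 2.99) in non-runners and from 0.891 to 15.9 CPM (median 5.44) in runners. Its log2 change of 0.73 ± 0.20 (adjusted p 0.0128) was the largest of the 41, yet the runner was higher in only 19 of 30 pairs. Fibromodulin (Fmod, chr1:134037254-134048277, plus strand), a collagen-binding proteoglycan abundant in tendon, ranged from 22.8 to 141 CPM (median 76.5) in non-runners and from 38.4 to 225 CPM (median 96.6) in runners. Its log2 change was 0.38 ± 0.13 (adjusted p 0.0372), with the runner higher in 20 of 30 pairs. In both genes runners filled most of the range of the non-runners and extended it upward. Chad lies inside the span of Acsf2 on the opposite strand without shared exon bases, and Acsf2 itself rose by 0.42 ± 0.08 on the log2 scale (adjusted p 0.000173). Whether strand was used in counting is not given in the sources used here, and the part of Acsf2 reads in the Chad count was not tested.

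The 2 large basement membrane proteoglycans rose less. Perlecan (Hspg2, chr4:137468769-137570630, plus strand) links laminin and collagen networks, and agrin (Agrn, chr4:156165290-156197488, minus strand) also organises the neuromuscular junction. Hspg2 ranged from 139 to 236 CPM (median 187) in non-runners and from 161 to 565 CPM (median 209) in runners. The single value of 565 belongs to running, NR-only replicate 1, the library rich in rRNA-like reads, and the other 6 animals of that group lay between 174 and 228 CPM. The log2 change of Hspg2 was 0.23 ± 0.07 (adjusted p 0.0163) with that library and 0.15 (adjusted p 0.0102) without it. Agrn ranged from 15.8 to 21.3 CPM (median 18.02) in non-runners and from 15.9 to 28.7 CPM (median 19.7) in runners, with a log2 change of 0.13 ± 0.04 (adjusted p 0.0271). Without the same library the Agrn change was 0.11 and missed the threshold (adjusted p 0.0556). The remaining proteoglycans, Dcn at 0.15 (adjusted p 0.14), Prelp at 0.13 (0.368) and Ogn at 0.09 (0.529), had positive log2 changes that did not pass the test.

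The sequences before the annotated starts of 4 of these proteoglycan genes are shown as a description. RefSeq promoters (build GRCm38.p6) were found for 26 of the 41 members, 31 promoters in all, and for 8 of the 14 called members. The 4 shown are the called members with the smallest p whose 250 bases before the start held no annotated exon of the gene. Each is written 5′ to 3′ on the strand of its gene, and capitals mark the GC box letters GGGCGG and the TATA box letters TATAAA on either strand. The windows are chrX:73483351-73483600 (plus strand, Bgn), chr11:94564797-94565046 (plus strand, Chad), chr4:156197489-156197738 (minus strand, Agrn) and chr1:134037004-134037253 (plus strand, Fmod).
Bgn: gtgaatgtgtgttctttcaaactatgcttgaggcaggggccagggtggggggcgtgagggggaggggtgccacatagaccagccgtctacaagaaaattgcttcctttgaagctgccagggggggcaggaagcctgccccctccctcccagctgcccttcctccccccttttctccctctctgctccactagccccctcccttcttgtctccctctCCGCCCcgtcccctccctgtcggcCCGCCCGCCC
Chad: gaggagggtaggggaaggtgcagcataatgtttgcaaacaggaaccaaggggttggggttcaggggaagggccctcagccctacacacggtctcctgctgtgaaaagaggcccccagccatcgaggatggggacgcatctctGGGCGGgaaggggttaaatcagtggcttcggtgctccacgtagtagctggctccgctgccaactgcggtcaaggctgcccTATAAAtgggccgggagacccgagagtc
Agrn: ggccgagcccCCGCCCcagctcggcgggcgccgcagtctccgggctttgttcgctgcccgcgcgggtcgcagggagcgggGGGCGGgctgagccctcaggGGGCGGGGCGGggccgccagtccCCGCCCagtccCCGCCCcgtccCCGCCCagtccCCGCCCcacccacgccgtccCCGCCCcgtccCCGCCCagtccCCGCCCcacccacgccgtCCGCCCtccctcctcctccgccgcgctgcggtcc
Fmod: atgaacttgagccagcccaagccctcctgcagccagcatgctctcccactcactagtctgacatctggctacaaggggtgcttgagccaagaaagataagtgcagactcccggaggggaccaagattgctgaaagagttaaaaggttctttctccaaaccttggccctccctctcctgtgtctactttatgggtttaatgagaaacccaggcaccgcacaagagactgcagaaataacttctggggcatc
Bgn held 3 GC box matches, Chad 1 with 1 TATA box match, Agrn 12 and Fmod none of either, with overlapping matches counted. GGGCGG was present in 19 of 31 member promoters, 7 of 9 promoters of called members, and 32.7% of all 32851 promoters of that length. TATAAA was present in 6 of 31 and in 12.4% of all. The AP-1 letters TGANTCA were present in 1 of 31 (6.75% of all) and the SMAD palindrome GTCTAGAC in 0 of 31 (0.167% of all), each searched on both strands. A match describes letters in this window and is not a bound site, and the 4 genes rose with 0 to 12 such matches.

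Of the laminins and nidogens, Lamb1, Nid2, Lama4 and Lama2 rose with running. Lamb1 (chr12:31265234-31329493, plus strand) encodes the β1 chain shared by several laminins. It ranged from 27.3 to 58.2 CPM (median 37.8) in non-runners and from 34.9 to 62.2 CPM (median 44.4) in runners, with a log2 change of 0.25 ± 0.05 (adjusted p 0.000927). Of 30 runners, 27 lay above the non-runner median, and 1 exceeded the highest non-runner, which was NR-only replicate 6. Among the non-runners 5 lay above the runner median and 10 below the lowest runner. Lama4 (chr10:38965515-39110188, plus strand) encodes the α4 chain typical of endothelial basement membrane. It ranged from 18.2 to 43.1 CPM (median 30.96) in non-runners and from 27.7 to 52.1 CPM (median 34.9) in runners, with a log2 change of 0.24 ± 0.06 (adjusted p 0.00512). Nidogen 2 (Nid2, chr14:19751265-19811787, plus strand) bridges laminin and type IV collagen. It ranged from 10.2 to 23.5 CPM (median 17.7) in non-runners and from 15.7 to 25.6 CPM (median 20.2) in runners, with a log2 change of 0.23 ± 0.05 (adjusted p 0.00186). For each of these 3 genes the runner was higher in 25 of 30 pairs.

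Lama2 (chr10:26980036-27619758, minus strand) encodes the α2 chain of the muscle fibre basement membrane, whose loss causes congenital muscular dystrophy. It ranged from 30.2 to 79.6 CPM (median 61.7) in non-runners and from 50.4 to 96.1 CPM (median 69.1) in runners. Its log2 change was 0.17 ± 0.06 (adjusted p 0.0401), with the runner higher in 20 of 30 pairs. The value of 96.1 again belongs to running, NR-only replicate 1, and the call was lost without it (log2 change 0.13, adjusted p 0.0816). In cohort 1 alone the change of Lama2 was 0.08 and in cohort 2 alone 0.23. The 4 other genes of the class were not called: Lamc1 was at 0.10 (adjusted p 0.108), Nid1 at 0.18 (0.198), Lama5 at 0.07 (0.431) and Lamb2 at -0.03 (0.606). Lamb2, the β2 chain enriched at the synapse, was also the member with the smallest spread between animals. Nid2 shares 437 exon bases with Rtraf on the opposite strand, a gene that was at -0.07 ± 0.03 (adjusted p 0.0998).

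**Figure D2:**
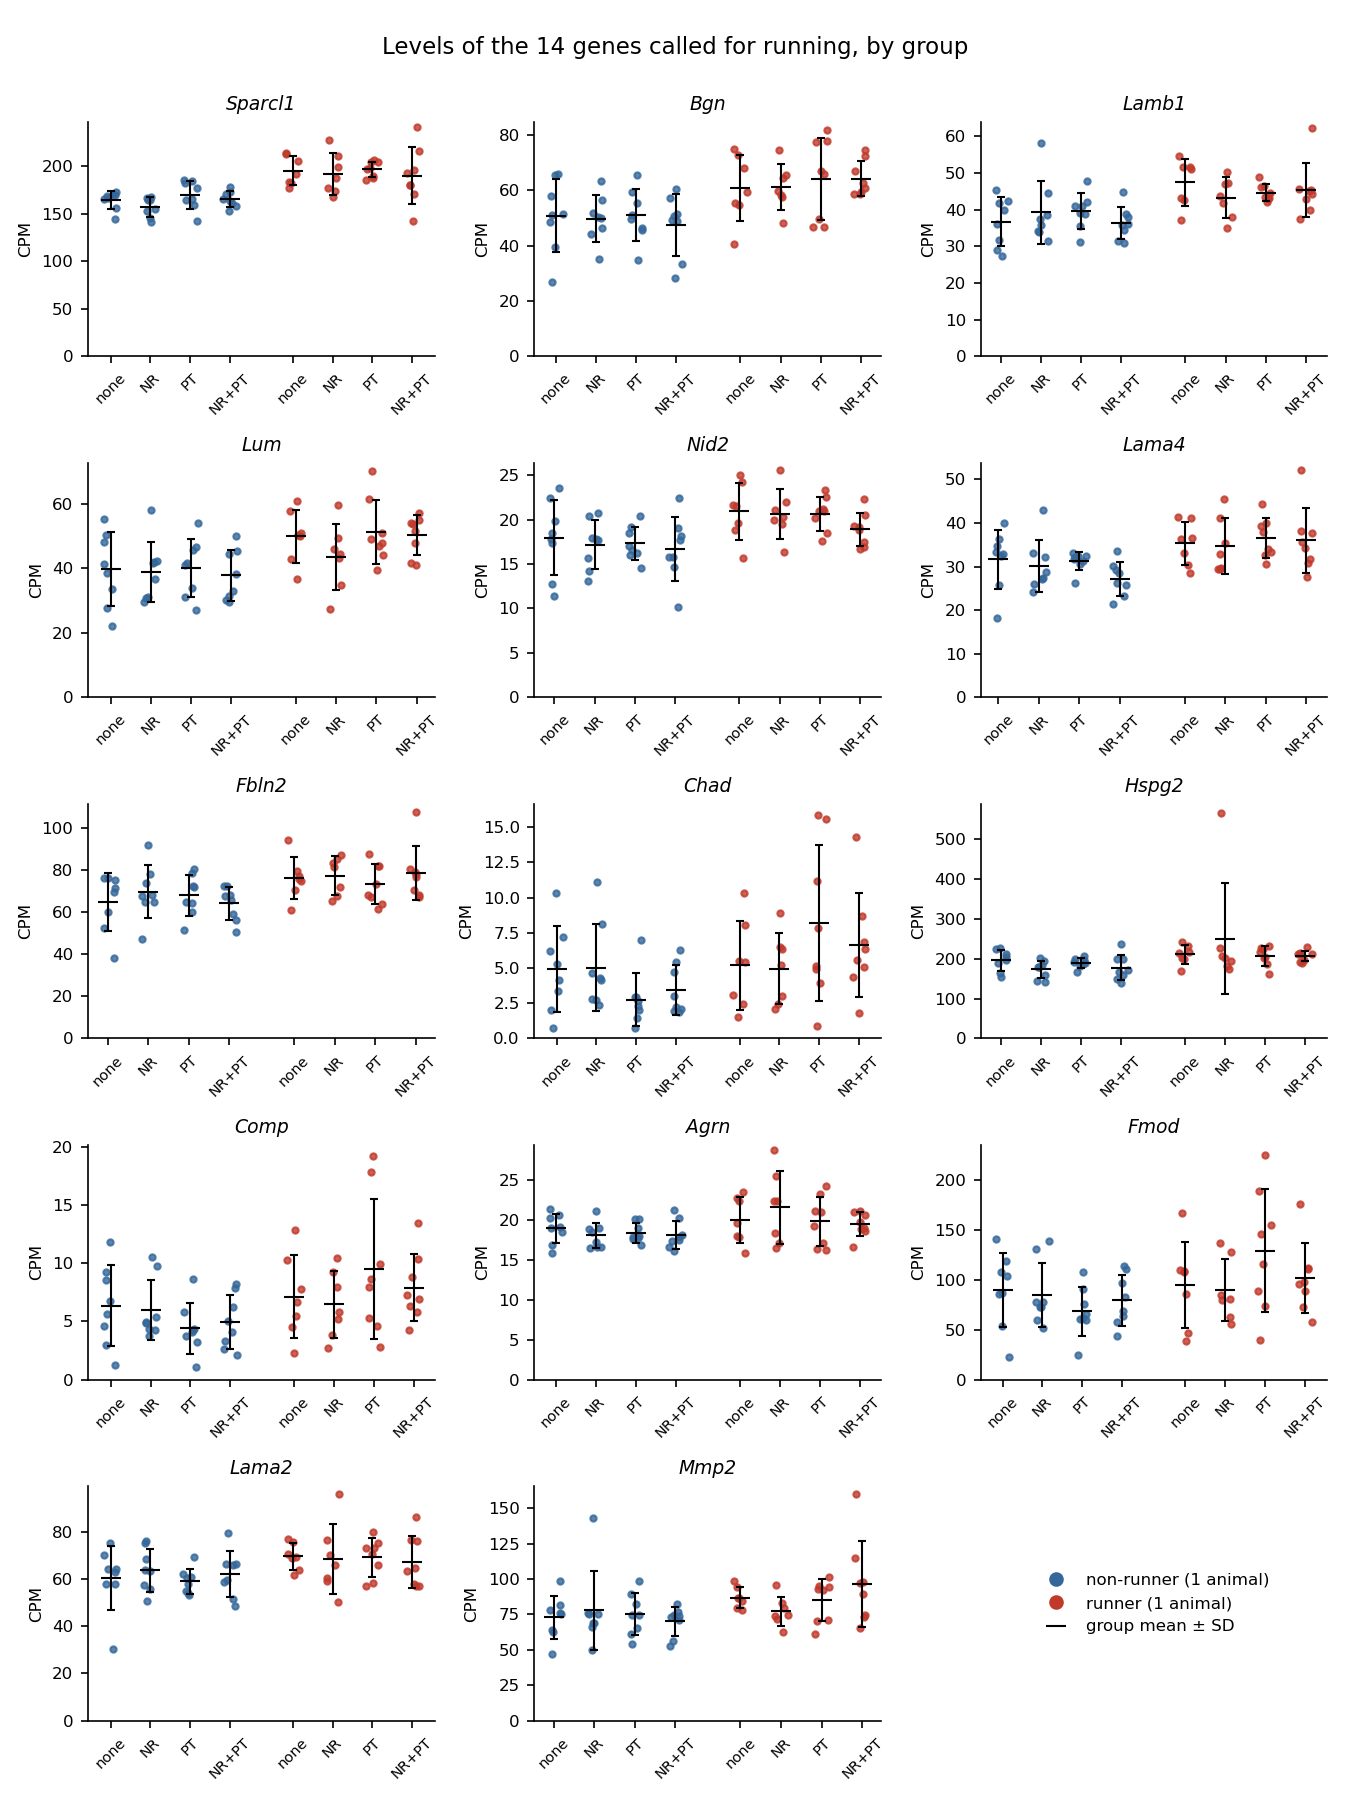
Levels in CPM (y axis, from 0) of the 14 genes called for running, with 1 point per animal, in the 4 non-running groups (blue) and the 4 running groups (red), by supplement (x axis). Horizontal marks and bars give the group mean ± SD over 7 or 8 animals. Running groups sit higher with wide overlap, Sparcl1 shows the narrowest groups, and single points stand far above their group in Hspg2 (565 CPM) and Mmp2 (143 and 160 CPM).

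Sparcl1 gave the smallest p of the members. Sparcl1 (also named hevin, chr5:104079111-104113733, minus strand) is an anti-adhesive matricellular glycoprotein related to Sparc. It ranged from 141 to 185 CPM (median 166) in non-runners and from 142 to 242 CPM (median 193) in runners, with means of 164 ± 11.5 (SD, n = 32) and 194 ± 19.7 (SD, n = 30). Of 30 runners, 29 lay above the non-runner median and 20 above the highest non-runner, and no non-runner reached the runner median. Its log2 change was 0.23 ± 0.03 (adjusted p 1.13e-06), with the runner higher in 29 of 30 pairs. It was the one member called in each of the 22 other settings of the analysis, including each cohort alone (0.26 in cohort 1 and 0.20 in cohort 2).

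Cartilage oligomeric matrix protein (Comp, chr8:70373558-70382066, plus strand), a thrombospondin family member of tendon and cartilage that binds fibrillar collagen, also rose. Comp ranged from 1.06 to 11.8 CPM (median 4.72) in non-runners and from 2.26 to 19.3 CPM (median 7.08) in runners. Its log2 change was 0.56 ± 0.16 (adjusted p 0.0168), but the runner was higher in only 16 of 30 pairs, and the highest values came from 3 runners with PT. The 9 other adhesive or matricellular genes were not called. Their log2 changes ran from 0.04 for Tgfbi to 0.39 for Postn and were above 0 in each case. Postn, the periostin of remodelling connective tissue, had an adjusted p of 0.2, Tnc (tenascin C) 0.126, Sparc 0.231, Thbs4 0.3, Thbs2 0.32, Tnxb 0.432, Fn1 (fibronectin) 0.499, Thbs1 0.521 and Tgfbi 0.791.

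In the elastic fibre class Fbln2 rose alone. Fibulin 2 (Fbln2, chr6:91212455-91272539, plus strand) binds fibronectin, elastin and basement membrane proteins. It ranged from 38.4 to 92.1 CPM (median 68.2) in non-runners and from 61.1 to 108 CPM (median 76.4) in runners, with a log2 change of 0.20 ± 0.06 (adjusted p 0.0125). The runner was higher in 24 of 30 pairs, and 9 non-runners lay below the lowest runner. Elastin itself (Eln) was at 0.10 (adjusted p 0.594), the microfibril proteins Fbn1 at 0.24 (0.214) and Mfap5 at 0.04 (0.881), and the fibulins Fbln1 at 0.21 (0.149) and Fbln5 at 0.10 (0.306).

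Of the enzymes and inhibitors, the gelatinase gene Mmp2 (chr8:92827291-92853419, plus strand) alone passed the threshold, and narrowly. Mmp2 ranged from 46.8 to 143 CPM (median 74.4) in non-runners and from 61.1 to 160 CPM (median 85.5) in runners, with a log2 change of 0.22 ± 0.08 (adjusted p 0.0435). The call was lost without non-running, no-supplement replicate 8 (0.21, adjusted p 0.0638). Its inhibitors were not called: Timp2, which also helps activate Mmp2, was at 0.10 (adjusted p 0.446), Timp1 at 0.22 (0.541) and Timp3, which is bound to the matrix, at -0.01 (0.906). The lysyl oxidases Lox and Loxl1, which cross-link collagen and elastin, were at 0.03 (0.889) and 0.14 (0.458). Adamts4, an aggrecan-cutting protease, was at -0.06 (0.917).

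The 2 cohorts were also fitted apart. Cohort 1 alone gave 9 called members (4.32% of all genes were called), 8 of them among the 14, and cohort 2 alone gave 1, Sparcl1 (0.42% of all genes). The log2 changes of Bgn were 0.42 and 0.25 in cohorts 1 and 2, of Lum 0.42 and 0.25, of Lamb1 0.23 and 0.26, of Nid2 0.24 and 0.22, and of Lama4 0.22 and 0.26. They were 0.77 and 0.75 for Chad, 0.61 and 0.52 for Comp, 0.49 and 0.28 for Fmod, 0.22 and 0.20 for Hspg2, and 0.13 and 0.11 for Agrn. Fbln2 was at 0.20 and 0.17 and Mmp2 at 0.25 and 0.20. The direction was shared by both cohorts for all 14 genes. They were called in the fit of both cohorts together, so this agreement in sign is in part built in. A test of the difference between cohorts, added after seeing the data, gave 0 of 41 members at an adjusted p under 0.05 (0% of all genes) and 0 at an unadjusted p under 0.05 (2.71%). With counts summed over the animals of each of the 16 sessions, 17 members were called (8.76% of all genes), 13 of them among the 14. Agrn was lost, and Dcn, Fbln1, Nid1 and Tnc were gained.

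Running was next compared within each supplement condition, with 7 or 8 mice a side. Sparcl1 in mice with NR alone was the only call (log2 change 0.29 ± 0.06, adjusted p 0.0198), where 0.447% of all genes were called. No member was called without supplement (0% of all genes), with PT alone (0.00687%) or with both (1.7%). At an unadjusted p under 0.05 there were 5 members without supplement (6.79% of all genes), 6 with NR alone (10.9%), 11 with PT alone (9.22%) and 10 with both (16.6%). DESeq2 called 2 members with NR alone, where 1.08% of all genes were: Sparcl1 and Hspg2 (0.48 ± 0.13, adjusted p 0.0353). Without running, NR-only replicate 1 both edgeR and DESeq2 called Sparcl1 alone of the members (0.177% and 0.621% of all genes), and Hspg2 had a log2 change of 0.19 ± 0.09 in DESeq2 (adjusted p 0.401). With all animals DESeq2 called 1 with PT alone (Chad, adjusted p 0.0361), where 0.144% of all genes were, and 2 with both (Bgn and Lama4), where 3.23% were.

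The running change by supplement condition is given for the 6 members known from tendon and cartilage, namely Chad, Comp, Fmod, Thbs4, Tnc and Prelp. For Chad the change was 0.20 ± 0.40 without supplement, 0.03 ± 0.41 with NR alone, 1.65 ± 0.41 with PT alone and 1.04 ± 0.41 with both. For Comp it was 0.23 ± 0.33, 0.11 ± 0.34, 1.13 ± 0.32 and 0.75 ± 0.32 in the same order. For Fmod it was 0.08 ± 0.26, 0.13 ± 0.26, 0.89 ± 0.25 and 0.42 ± 0.25. These 3 were highest with PT alone and next with both. Thbs4, a thrombospondin of tendon and muscle, was at 0.03 ± 0.21, 0.00 ± 0.21, 0.50 ± 0.20 and 0.12 ± 0.20. Tnc was at 0.18 ± 0.22, 0.36 ± 0.22, 0.50 ± 0.21 and -0.09 ± 0.21, and Prelp at 0.11 ± 0.18, 0.19 ± 0.18, 0.13 ± 0.17 and 0.07 ± 0.18. The difference between conditions did not pass the test for any of the 6. The running by PT interaction was 1.23 ± 0.41 for Chad, 0.77 ± 0.33 for Comp and 0.55 ± 0.26 for Fmod on the log2 scale, against 0.29 ± 0.21 for Thbs4, -0.06 ± 0.21 for Tnc and -0.05 ± 0.18 for Prelp, each with an adjusted p of 1. Chad, Comp and Fmod were the only 3 of the 41 members at an unadjusted p under 0.05 for that interaction, where 3.51% of all genes were. The same 3 runners with PT were the highest animals for each of these genes, so the 3 genes are not independent. The median running change of the 6 tendon cell markers was 0.13 without supplement, 0.25 with NR alone, 0.70 with PT alone and 0.21 with both, and their median running by PT interaction was 0.24, with 0 of 6 called. Their part in the values of the members was not tested. Across the 4 interaction contrasts edgeR called 0 members (0% of all genes in each) and DESeq2 also called 0 (0.0412% of all genes for running by PT and 0% for the others). At an unadjusted p under 0.05 the running by NR interaction had 1 member, Lama5 (0.24 ± 0.11), where 3.61% of all genes were. Running, NR-only replicate 1 was the highest animal for Lama5, at 76.0 CPM against a median of 41.9, and without it the value was 0.18 ± 0.10 and 0 members were at an unadjusted p under 0.05 (3.65% of all genes). The NR by PT and 3-way interactions had 0 members, where 2.25% and 2.78% of all genes were.

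**Figure D3:**
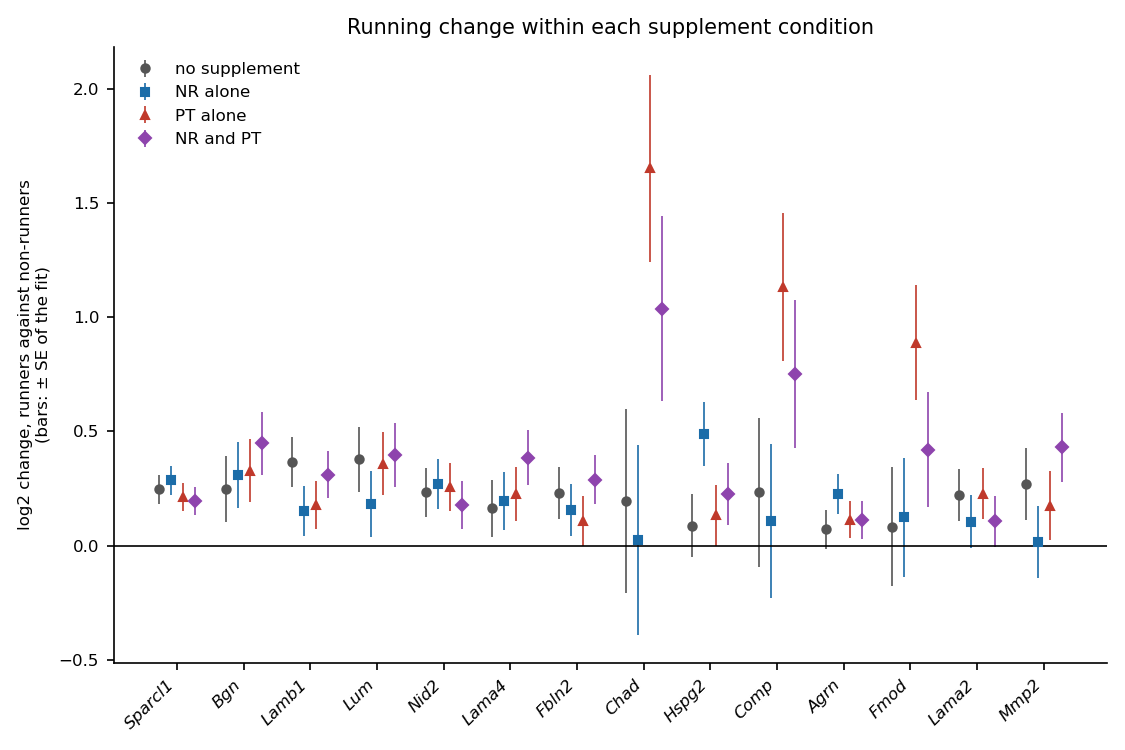
Log2 change between runners and non-runners (y axis) of the 14 called genes (x axis, ordered by p) in each of the 4 supplement conditions, marked by symbol and colour. Bars are ± 1 standard error of the fit. Sparcl1 lies between 0.19 and 0.29 in all 4 conditions, whereas Chad runs from 0.03 with NR alone to 1.65 with PT alone.

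NR and PT had no detected effect on the members. For NR, 0 of 41 were called (0.0206% of all genes were), 1 had an unadjusted p under 0.05 (5.68% of all genes), and DESeq2 called 0 (0.0275%). That one was Timp3, at -0.10 with an adjusted p of 0.838. For PT, 0 of 41 were called (0% of all genes), 0 had an unadjusted p under 0.05 (3.99%), and DESeq2 called 0 (0%). The median log2 change of the members was -0.02 for each supplement. For PT the changes of the 41 ran from -0.10 to 0.09, and for NR from -0.24 to 0.32.

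The NR comparison was also made by cohort, a step added after seeing the data. The median NR change of the members was -0.17 in cohort 1 and 0.13 in cohort 2. The value in cohort 2 was -0.0052 without 2 NR mice, non-running, NR-only replicate 6 and running, NR-and-PT replicate 7. Both were chosen because they were the highest for many members, so a lower NR change without them was fixed in advance. Low NR mice were kept, such as non-running, NR-and-PT replicate 6 (mean deviation -0.53 on the log2 scale). Over both cohorts the median moved from -0.0157 to -0.0818 without the 2 chosen mice, with 2 of 41 members above 0 in place of 15. None of the 41 passed the adjusted threshold for the difference between cohorts (lowest adjusted p 0.327), and 0% of all genes did. At an unadjusted p under 0.05 there were 11 of 41 members, 9 of them higher with NR in cohort 2, against 9.53% of all genes. Without the same 2 mice there were 6, 4 of them higher, against 7.53% of all genes. The largest difference among these was that of Postn, at 0.88 ± 0.41 (adjusted p 0.491), which was 0.41 ± 0.32 without the 2 mice. Dcn differed by 0.39 ± 0.13, Ogn by 0.52 ± 0.17 and Agrn by -0.27 ± 0.08. Cohort 1 was purified in pool 1 throughout and cohort 2 mostly in pool 3 (25 of 31, with 5 in pool 1 and 1 in pool 2). The part of the pool in these differences was not tested.

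Cohort itself and the time of day were compared on the session sums. For cohort, 0 members were called (0% of all genes) and 4 had an unadjusted p under 0.05 (7.75% of all genes), namely Postn at 0.66 ± 0.21, Lama4 at 0.10 ± 0.04, Nid1 at 0.13 ± 0.05 and Lamb1 at 0.08 ± 0.03, each higher in cohort 2. For time, 0 members were called (0% of all genes) and 0 had an unadjusted p under 0.05 (2.66%).

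Several members were high or low together in single animals, among runners and among non-runners. The mean deviation over the 41 members ran from -0.80 to 0.45 in non-runners and from -0.26 to 0.50 in runners, so the lowest animals were non-runners. Non-running, NR-only replicate 6 was the highest of all animals for 12 members, and running, NR-and-PT replicate 7 for 7. Both were taken on day 7, whose other 6 mice had mean deviations below 0, from -0.53 to -0.15. Postn stood at 44.7 and 42.9 CPM in these mice against a median of 6.84 over all 62, and Fn1 at 638 and 588 CPM against 160. The next highest for both genes was running, NR-and-PT replicate 6, with 33.1 and 368 CPM. The same 2 mice led Fbn1 (235 and 157 CPM), Mfap5 (44.6 and 38.9 CPM), Loxl1 (45.6 and 43.6 CPM), Timp2 (341 and 312 CPM) and Mmp2 (143 and 160 CPM), so that 1 runner and 1 non-runner shared the pattern. At the low end, non-running, no-supplement replicate 8 had 68.3 CPM of Fn1, 310 of Dcn and 22.2 of Lum.

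**Figure D4:**
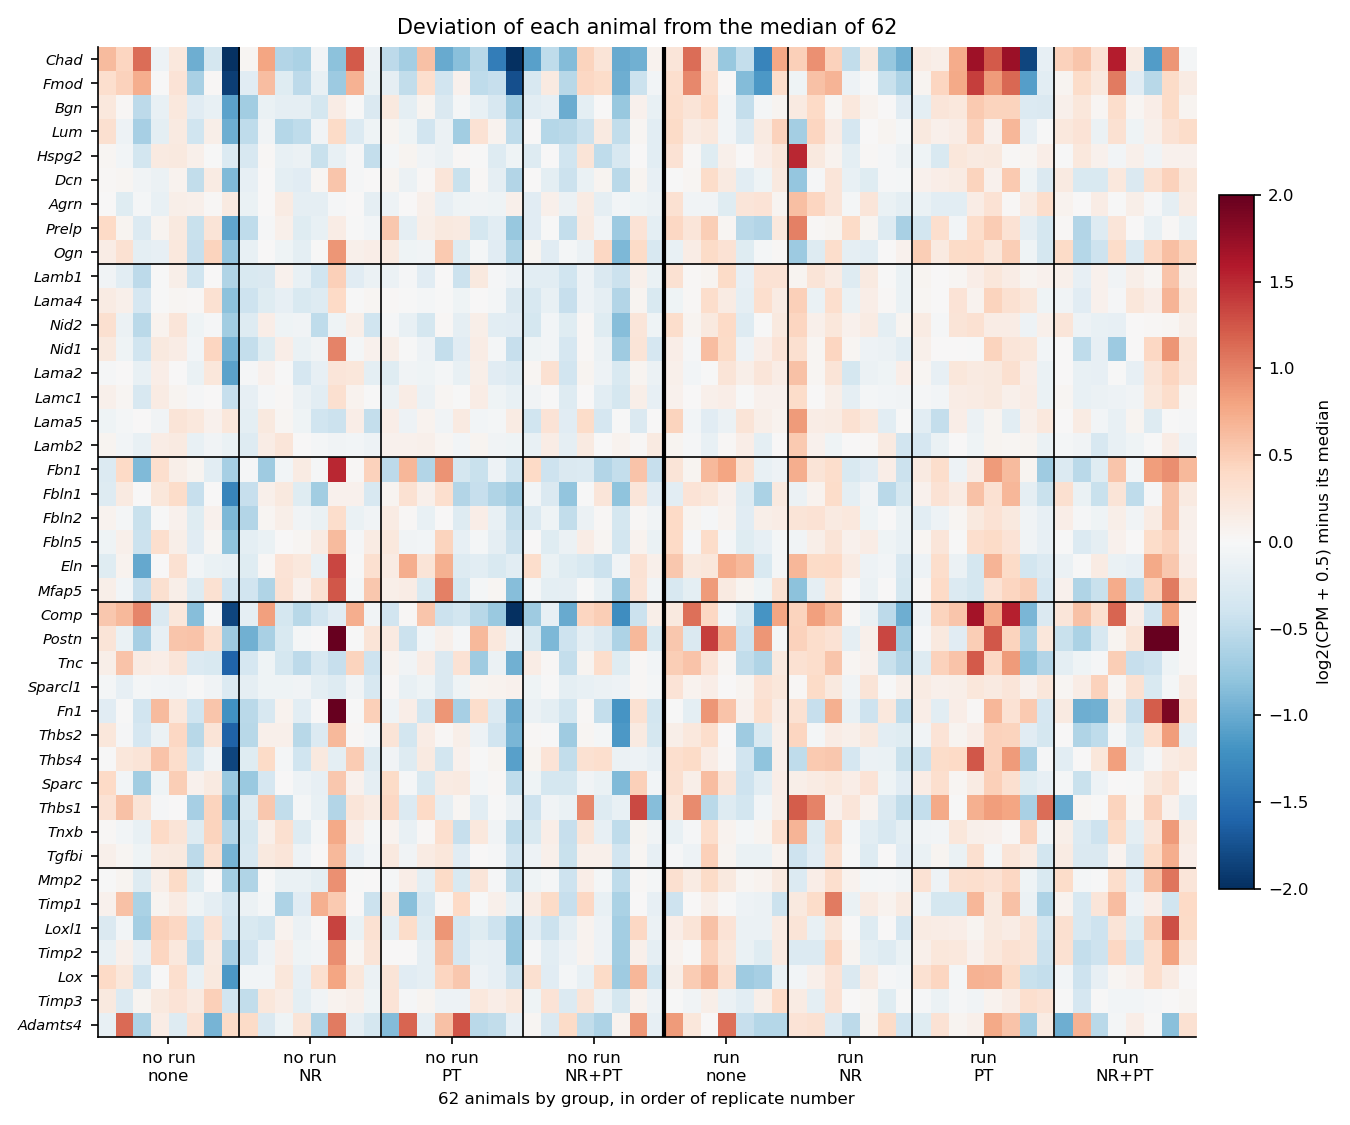
Deviation of log2(CPM + 0.5) from its median over 62 animals (colour, drawn from -2 to 2 with values beyond shown at the end colour) for the 41 genes (rows, by class) and 62 animals (columns, by group, non-runners left of the thick line). Blue columns such as the last one of the first group, with a mean deviation of -0.80, run through most rows, and non-running, NR-only replicate 6 and running, NR-and-PT replicate 7 are dark red in both Postn and Fn1.

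A second set of animals led 4 of the members known from tendon. Running, PT-only replicates 4 and 6 and running, NR-and-PT replicate 4 were the 3 highest of all 62 animals for Chad (15.6, 15.9 and 14.3 CPM), Comp (19.3, 17.8 and 13.5 CPM), Fmod (225, 189 and 176 CPM) and Thbs4 (210, 160 and 156 CPM). These are the animals behind the upper tail of the groups with running and PT. The lowest animal for Chad and Comp was non-running, PT-only replicate 8, at 0.705 and 1.06 CPM.

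The 6 members known from tendon and cartilage were compared with Tnmd, a membrane protein of tendon cells that is not among the 41. The other members were not compared with Tnmd, so whether such a relation is particular to these 6 was not tested. On log2 CPM over the 62 animals, Pearson's r with Tnmd was 0.87 for Fmod, 0.87 for Thbs4, 0.81 for Tnc, 0.79 for Comp and 0.75 for Chad. Spearman's rho was 0.85, 0.79, 0.79, 0.74 and 0.73. Each had an adjusted permutation p of 1e-05 for r and for rho, the smallest that 100000 resamples can give, in a family of 30 relations. Without the 2 animals farthest from the Tnmd median r was 0.84, 0.81, 0.74, 0.74 and 0.71. The 5 relations held within runners (r from 0.73 to 0.85), within non-runners (0.72 to 0.88), within cohort 1 (0.57 to 0.77) and within cohort 2 (0.84 to 0.93).

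Prelp, a leucine-rich anchor between basement membrane and connective tissue, was less regular against Tnmd. Its r was 0.54 (adjusted permutation p 3.46e-05) and its rho 0.54 (1e-05) over all animals, and 0.44 without the 2 farthest. Within cohort 1 its r was 0.09 (adjusted permutation p 0.635) and its rho 0.25 (0.183), and within runners r was 0.29 (0.128) and rho 0.47 (0.0108). Without the 2 animals farthest from the Tnmd median of each set, r was 0.46 in cohort 1 and 0.66 in runners, so the low values rest on those animals. Within cohort 2 its r was 0.83, and 0.79 without the 2 farthest. The runner far above the others in Prelp, at 113 CPM with low Tnmd, is NR-only replicate 1.

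**Figure D5:**
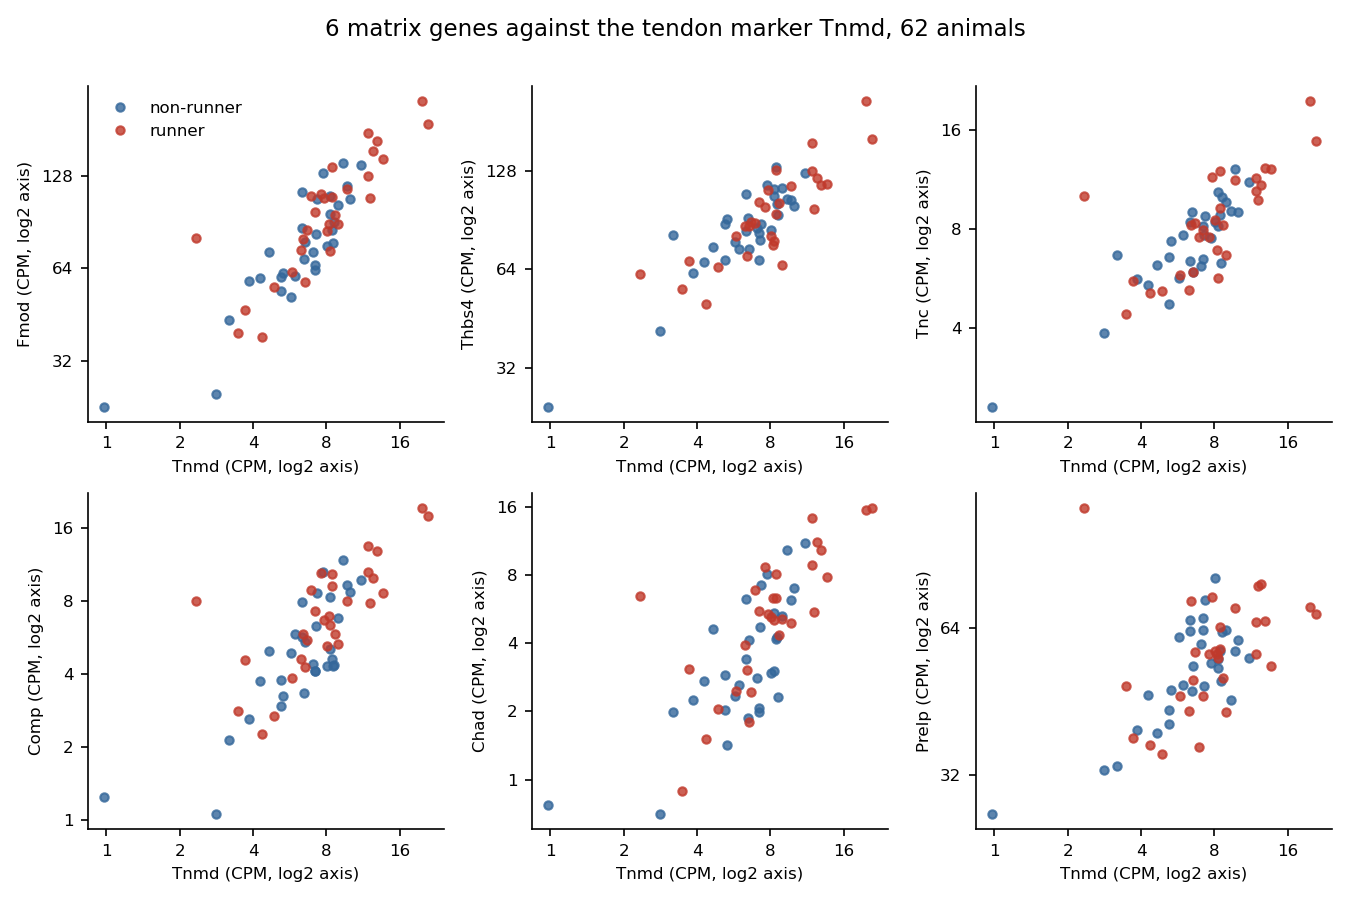
Level of 6 matrix genes (y axes, CPM on a log2 axis) against the tendon cell marker Tnmd (x axes, CPM on a log2 axis), with 1 point per animal, runners in red and non-runners in blue. Runners and non-runners lie along the same rising band for Fmod, Thbs4, Tnc, Comp and Chad (r from 0.75 to 0.87), and the Prelp panel shows 1 runner at 113 CPM far from the band (r 0.54).

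Markers of other cells moved with running in part, where 8.41% of all genes were called as higher and 5.58% as lower. Of 12 endothelial markers, 12 rose with running (median log2 change 0.30), and their summed level ranged from 278 to 388 CPM (median 334) in non-runners and from 290 to 577 CPM (median 409) in runners. Of 6 tendon markers 1 rose, Cilp2 at 0.52 ± 0.14 (adjusted p 0.00831). The median log2 change of these 6 was 0.38, with 5 above 0 (55.1% of all genes) and the same number at an unadjusted p under 0.05 (28.5% of all genes). Their summed level ranged from 9.11 to 45.6 CPM (median 31.4) in non-runners and from 17.1 to 70.7 CPM (median 36.1) in runners, and Tnmd itself was at 0.37 ± 0.14 (adjusted p 0.0654). The tendon marker Mkx was at 0 in 2 of 62 animals and the other 5 in none. Of 10 fibroblast markers 2 rose, Hsd11b1 and Mfap4, and their sum ranged from 1055 to 2632 CPM (median 1831) in non-runners and from 1381 to 2464 CPM (median 1921) in runners. Of 6 cartilage markers, 2 (Col9a1 and Sox9) were abundant enough to test and neither was called. Of the 4 others Acan was at 0 in 55 of 62 animals, Matn3 in 43, Hapln1 in 25 and Col2a1 in 8. The part of these marker lists in the changes of the members was not tested. In whole muscle a change in the number of cells of a type and a change in RNA per cell cannot be told apart.

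Among the other marker lists, 3 of 8 mural cell genes rose and 1 (Acta2) fell, 2 of 8 macrophage genes rose, 1 of 6 adipocyte genes rose and 1 of 7 Schwann cell genes fell. Beside the 8.41% of all genes that rose and the 5.58% that fell, counts of 1 or 2 in lists this short say little about a cell type. No satellite cell gene (of 5) and no myofibre gene (of 6) was called.

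The rest of the matrix pathway is given for the same running comparison, in which 8.41% of all genes rose and 5.58% fell. Of 16 collagens, 10 rose and 0 fell, with a median log2 change of 0.28. The smallest p-values were those of the basement membrane chains Col4a1 (0.37 ± 0.07, adjusted p 0.000109) and Col4a2 (0.32 ± 0.06, 0.000129) and of Col15a1 (0.31 ± 0.07, 0.000923), and the largest change was that of Col3a1 (0.39 ± 0.11, 0.0181). Of 15 tested collagen-processing genes 2 rose and 1 fell: Plod1, a lysyl hydroxylase, was at 0.12 and Loxl2 at 0.26, and P4hb, a subunit of prolyl hydroxylase, at -0.11. Of 16 further proteases and inhibitors 3 rose (Adamts7 at 0.45, Mmp11 at 0.31 and Mmp14, an activator of Mmp2, at 0.30). Of 24 matrix receptor genes 8 rose and 1 fell. The syndecan Sdc3 was at 0.32 and the laminin-binding integrin chain Itga6 at 0.33, whereas dystroglycan (Dag1), the laminin receptor of the fibre, was at -0.16 ± 0.02 (adjusted p 1.07e-05). Of 16 TGFβ and CCN pathway genes 2 rose and 3 fell, among them Ltbp4, a matrix store of latent TGFβ, at 0.20, and Tgfb2 at -0.17 and Tgfbr1 at -0.14.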

How the data were processed

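The values are whole-number read counts per gene that the authors deposited in 1 table, not normalized, with 1 column for each of 62 quadriceps libraries. TRIzol and DNase-treated columns were used for the RNA, and stranded poly-A libraries were sequenced as paired ends, per the labels' protocols. Reads were aligned with STAR 2.7.3a and counted with featureCounts 2.0.0 on mm10, per the submitters' processing notes. Neither the strand option nor the annotation release is given in the sources used here. Counts of the 18 members that overlap a gene on the other strand are therefore uncertain. Gene identifiers were matched to symbols through GENCODE M21 (55394 of 55487 genes).

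Counts were tested with edgeR 4.0.16 in R 4.3.3: filterByExpr (minimum count 10, minimum total 15, 14549 genes left), TMM scaling, and a robust quasi-likelihood F test with the 8 groups, the 8 days and the time of day (46 residual degrees of freedom). P-values are two-sided and adjusted by Benjamini-Hochberg over all 14549 genes, and calls were made at an adjusted p under 0.05. Standard errors are the log2 change divided by the square root of F. Levels are CPM on TMM-scaled library sizes. Cohort and time were tested on counts summed over each of 16 sessions (day and running state). Correlations used log2(CPM + 0.5) and 100000 permutations in scipy 1.17.1. Intervals for single shares are not given, and the precision rests on the spread between animals.

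Alternatives were DESeq2 1.42.0, RLE scaling, no filter, other covariates, each cohort, each day left out and libraries left out. The tests were checked on simulated counts. Full values are given for every member called for a main effect, at most 14, and for up to 3 called genes of each other matrix list. Members, lists and naming rule were chosen with earlier results of these data known. Library 1 with NR and running and library 8 without running or supplement were left out, as were 2 NR mice high for many members, and NR and running by cohort were fitted, as alternatives chosen after seeing the data.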

Additional observations from a re-analysis of the deposited data

Results flagged for a closer look

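A single animal far from the rest of its group of 7 or 8 was found in 31 of the 328 sets of values (41 genes in 8 groups), by Dixon's test at its 95% limit on log2(CPM + 0.5). Chance alone flags about 1 in 20 groups, and genes that share an animal are not independent. The values are given as measured, with no account of their cause.

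Non-running, NR-only replicate 6 was the highest of its group for Dcn (842 CPM), Ogn (134), Nid1 (243), Fbln5 (24.2), Eln (42.9), Fn1 (638), Postn (44.7), Loxl1 (45.6) and Mmp2 (143 CPM, with the other 7 mice between 49.8 and 76.0). Replicate 7 of that group was the highest for Tnc (11.1 CPM). Non-running, no-supplement replicate 8 was the lowest for Lama2 (30.2 CPM), Tnc (2.32) and Thbs4 (24.4), and replicate 3 for Eln (7.98 CPM). Non-running, PT-only replicate 8 was the lowest for Fmod (24.9 CPM), Lama4 (26.3) and Thbs4 (41.5). Non-running, NR-and-PT replicate 6 was the lowest for Mfap5 (11.04 CPM) and Timp2 (109.5), and replicate 7 the highest for Postn (11.01 CPM).

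Among the runners, NR-only replicate 1 was the highest for Hspg2 (564.5 CPM) and replicate 3 for Timp1 (1.33 CPM). NR-and-PT replicate 7 was the highest for Lamb1 (62.2 CPM) and Fbln2 (108 CPM), and replicate 4 for Thbs4 (156 CPM). Replicates 1 and 2 of that group were the lowest for Thbs1 (5.71 CPM) and Timp3 (85.3 CPM). PT-only replicate 8 was the lowest for Loxl1 (13.2 CPM) and Timp2 (133 CPM), and replicate 1 for Lamb2 (124 CPM). No-supplement replicate 3 was the highest for Tgfbi (54.5 CPM).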

How the results depend on the processing

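Against 14 members called for running, the count was 9 in cohort 1 and 1 in cohort 2. It was 6 without the 8 libraries called rich in rRNA-like reads (Bgn, Hspg2, Lamb1, Lum, Nid2 and Sparcl1 remained). There 12.1% of all genes were called (1779, against 14% in all). A library was called rich when its share of such reads passed 5 times the median share. Running, NR-only replicate 1 was at 15.2%, and the others over that limit held from 0.196% to 1.43%. The 8 rRNA-like genes include Rn7s1, Rn7s2 and Rn7sk, which are not rRNA genes. The count of called members ran from 6 (without day 1) to 14 with each day left out, and was 8 without day 4. With 1 or both of the libraries that stand apart left out it ran from 11 to 13, and the count over all genes reached 2393 without the running, NR-only library. Over all genes the count was 2035, with 1333 without a filter, 624 in cohort 1, 63 in cohort 2, 1275 on session sums, and 1035 to 2358 with each day left out. DESeq2 called 2 members for running with NR alone, 1 with PT alone and 2 with both, where edgeR called 1, 0 and 0. RLE scaling and DESeq2 called the same 14 members for running. The cause of these differences was not tested.

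Of the 902 values over members and settings, 796 kept their direction and side of the threshold, 82 lost the call, 6 gained it and 18 changed sign. The 82 lost calls all belong to the 14 called members, of whose values 226 kept both direction and call. No called member changed sign. Sparcl1 was called in 22 of 22 settings, Bgn, Lamb1, Lum and Nid2 in 21, Lama4 in 20, Fbln2 in 19, Hspg2 in 18, Chad and Comp in 14, Agrn and Fmod in 10, Mmp2 in 9 and Lama2 in 6. The sign changed in uncalled genes close to 0. Adamts4 was at 0.15 in cohort 2 and from -0.31 to 0.43 with days left out, Timp3 from -0.0745 to 0.0272 and Eln from -0.0015 to 0.1953 with days left out, and Lamb2 at 0.0025 in cohort 2. Lox was at -0.0681 in cohort 2, at -0.0697 without rRNA-rich libraries, from -0.0301 to 0.0784 with days left out, at -0.0004 without non-running, no-supplement replicate 8 and at -0.01 without both libraries. Mfap5 was at -0.0195 and Tgfbi at -0.0033 without rRNA-rich libraries, Mfap5 from -0.0094 to 0.0769 with days left out, and Tgfbi at -0.0213 in cohort 1. The r of Prelp with Tnmd was 0.0874 in cohort 1.

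Replicate numbers are shared by the groups. They did not pair the animals: the correlation of deviations between same-numbered animals had a median of 0.008 over 211 pairs, with 32 above 0.1. With the replicate number as a block, 9 members were called for running (13.6% of all genes), and Chad, Comp, Fmod, Lama2 and Mmp2 were lost. With the RNA integrity number as a covariate, 11 were called (12.3% of all genes), and Fmod, Lama2 and Mmp2 were lost. Without non-running, NR-only replicate 6 and running, NR-and-PT replicate 7 the median NR change of the members in cohort 2 turned from 0.132 to -0.0052. Both mice had NR and were chosen for their high values, so the fall was fixed in advance. Depth limits Timp1 and Adamts4, with mean counts of 7.37 and 10.9.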
